A study of Mus musculus with 17 samples.

Results

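The 9 genes described here, Id2, Id3, Tbx21, Eomes, Zeb2, Runx3, Prdm1, Zfp683 and Bhlhe40, encode transcription factors that are known to steer CD8+ T cells towards effector or memory fates. They were taken by symbol from the deposited count table, which lists 48709 genes, and all 9 were found. The counts came from RNA sequencing of CD8+ T cells, the cytotoxic lineage of T lymphocytes, from the brain and the blood of mice. Wild type (WT) mice gave 5 brain and 5 blood libraries, all from females. APP-PS1 mice gave 4 brain libraries (3 male, 1 female) and 3 blood libraries (2 male, 1 female). APP-PS1 animals, named APP Swedish PS1 dE9 in full, serve as a model of Alzheimer's disease and carry a pair of transgenes. The first, Mo/HuAPP695swe, encodes mutant amyloid precursor protein as a mouse and human chimera, and the second, PS1-dE9, encodes mutant human presenilin. The prion protein promoter directs their expression to neurons of the central nervous system. The design text calls animals aged but gives no age. It names 7 APP-PS1 and 10 WT mice, which equals the number of libraries of each strain, but the labels do not tie a library to an animal.

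A CD8+ T cell that meets antigen becomes either a short-lived killer cell or a long-lived memory cell, and the balance between these factors is known to weigh on that choice. The Id proteins bind E proteins and keep them from DNA; the T-box factors T-bet (Tbx21) and eomesodermin (Eomes) switch on killer genes, and Zeb2 acts downstream of T-bet in terminal effector cells. Runx3, Blimp-1 (Prdm1), Hobit (Zfp683) and Bhlhe40 are known for their part in memory cells that stay in tissues instead of recirculating.

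Depth limited what could be measured. Libraries held 27646 to 214670 counts, and the 3 APP-PS1 blood libraries, at 39055 to 46336, held less than any of the 5 WT blood libraries, whose totals ran from 62604 to 214670. APP-PS1 brain replicate 1 and APP-PS1 blood replicate 1 were the shallowest of all and correlated least with the other libraries, with mean Spearman coefficients of 0.547 and 0.562 against 0.592 to 0.696 for the rest. Markers of CD8 T cells were present in every group, and Cd4 had 0 counts in all 17 libraries. Cells were freed of myelin on a gradient when they came from brain and of red cells by lysis when they came from blood, so tissue and processing cannot be told apart. Haemoglobin genes summed to 36.2 to 873 CPM (counts scaled to the library total) in brain libraries and to 2152 to 9967 CPM in blood libraries, and their part in the differences between brain and blood was not tested. Sex and strain largely coincide and cannot be fully told apart. In bulk RNA, fewer cells that express a gene and less of its RNA per cell cannot be told apart either. As the labels do not tie libraries to animals, the p-values measure only how these samples spread, and that spread may be technical.

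The abundance of the factors set which of them could be tested well. Over all libraries, Id2 had 4989 counts, Runx3 307, Eomes 233, Bhlhe40 115, Tbx21 104, Prdm1 54, Zeb2 50, Id3 25 and Zfp683 14. Only 4 of the 9 (Id2, Eomes, Runx3 and Bhlhe40) passed edgeR's expression filter, which kept 2366 genes. The other 5 were read from the same model fitted to the 8682 genes with at least 10 counts over all libraries. A gene counts as called below at an adjusted p under 0.05 in edgeR's quasi-likelihood test, adjusted after Benjamini and Hochberg over all genes of its fit.

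None of the 9 factors was called in any of the 6 comparisons made. For WT brain against WT blood, 0 of 9 were called against 0.761% of the filtered genes and 0.196% of the wider set. There 1 of 9 had an unadjusted p under 0.05, as did 172 of 2366 filtered genes and 585 of 8682 in the wider set. In APP-PS1 brain against APP-PS1 blood the count was also 0 of 9, against 0.549% and 0.184% of genes. Again 1 of 9 was under 0.05 unadjusted, as were 254 of 2366 and 777 of 8682 genes. APP-PS1 brain against WT brain gave 0 of 9, where 0.0% of genes were called in either set. In that comparison 1 of 9 was under 0.05 unadjusted, as were 98 of 2366 and 486 of 8682 genes. APP-PS1 blood against WT blood gave 0 of 9, against 0.0423% and 0.0576% of genes. Here 2 of 9 were under 0.05 unadjusted, as were 190 of 2366 and 682 of 8682 genes. The difference between strains in the brain against blood contrast gave 0 of 9, against 0.0423% and 0.0115% of genes. For it 2 of 9 were under 0.05 unadjusted, as were 117 of 2366 and 545 of 8682 genes. When brain was set against blood averaged over both strains, 0 of 9 were called against 2.62% and 0.668% of genes. In this average 2 of 9 were under 0.05 unadjusted, as were 317 of 2366 and 941 of 8682 genes. DESeq2 called 0 of 9 in the first 5 of these comparisons and 1, Id2, in the last. With so few genes called in any comparison, a count of 0 among 9 lies near the background and is no result about these factors. Counts of 1 or 2 among 9 under 0.05 unadjusted are no result either.

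Id2, an inhibitor of E proteins that favours effector cells and is also needed by resident memory cells, was abundant in every library (chromosome 12, 25093799 to 25097140, minus strand, GRCm38). Its levels in the 5 WT brain libraries were 3253, 3896, 3792, 3308 and 4017 CPM (3653 ± 350, SD, n = 5). WT blood libraries held 3107, 2357, 3222, 2508 and 4115 CPM (3062 ± 697, SD, n = 5). APP-PS1 brain libraries held 2496, 3606, 3413 and 3625 CPM (3285 ± 535, SD, n = 4). In that group replicate 1, the shallowest library of the series, was the lowest. APP-PS1 blood libraries held 819, 1791 and 2336 CPM (1649 ± 768, SD, n = 3). All 3 APP-PS1 blood libraries lay below all 14 others, as they did for 17 of the 2366 filtered genes, or 0.719%. In the order WT brain, APP-PS1 brain, WT blood, APP-PS1 blood, the first 3 groups differed from their neighbours by less than the larger SD of each pair, and the step down to APP-PS1 blood was larger than either SD.

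**Figure D1:**
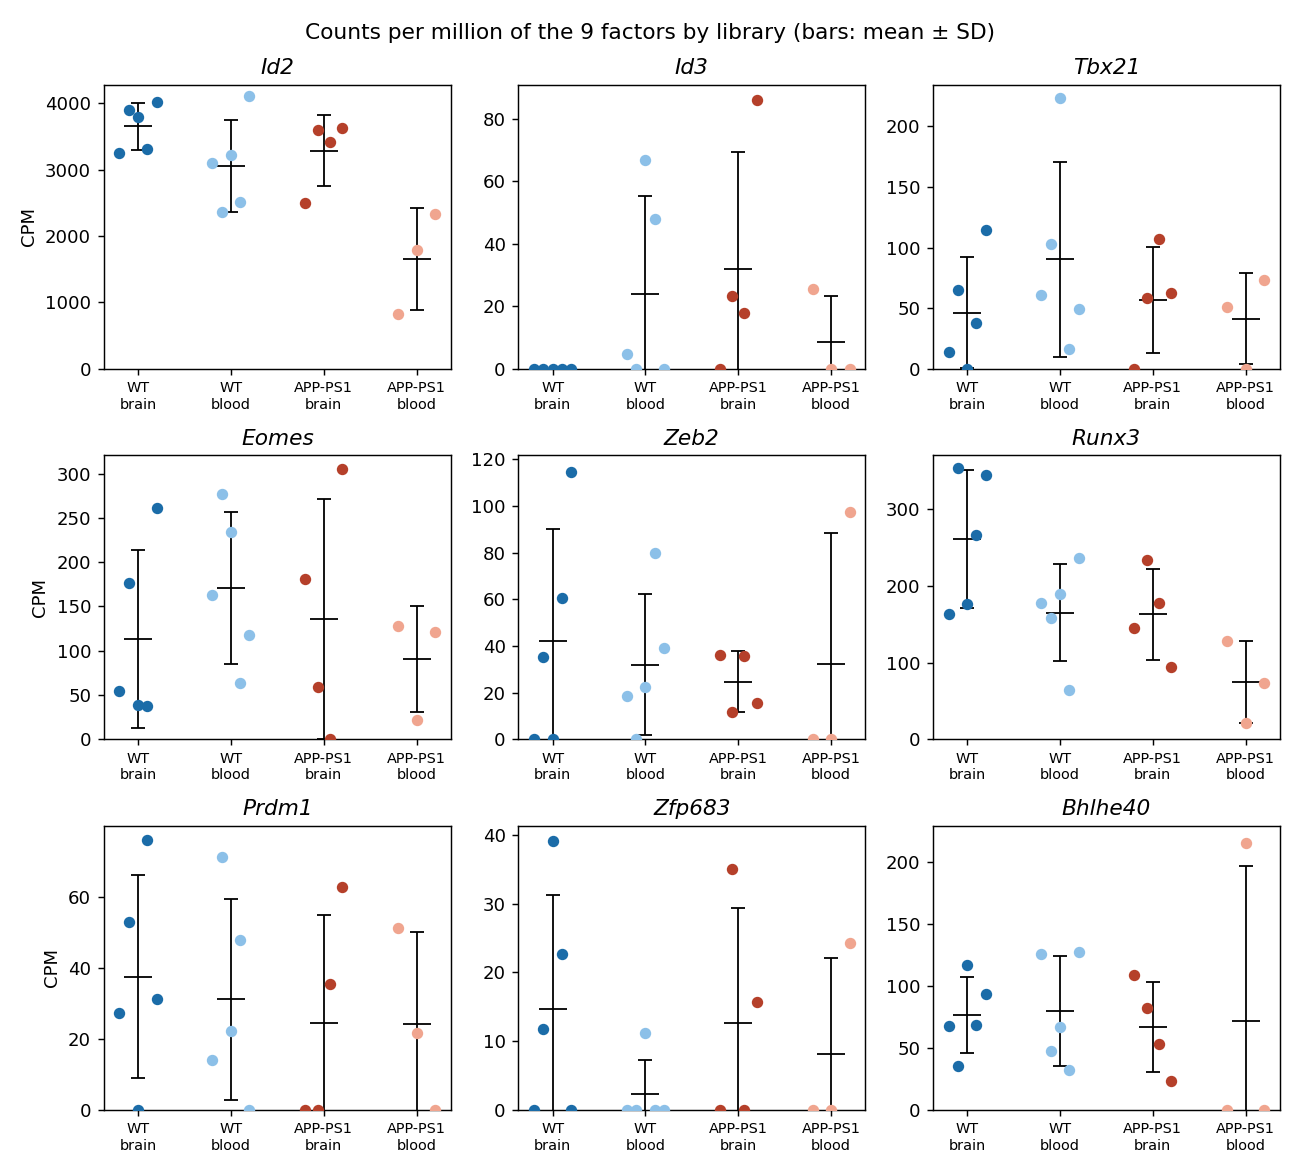
Level in CPM of each of the 9 factors (vertical axes, linear, each with its own range) in the 17 libraries, 1 point a library, by group, with bars at the mean ± SD. The 3 APP-PS1 blood points of Id2, at 819, 1791 and 2336 CPM, sit below every other Id2 point, while for the other 8 factors the groups overlap in each of the 4 comparisons between groups.

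In WT mice Id2 was measured precisely enough to bound its difference between tissues: the log2 fold change of brain against blood was 0.18 (SE 0.22, edgeR quasi-likelihood adjusted p = 0.925), and the 95% interval ran from 0.832-fold to 1.55-fold. In APP-PS1 mice the same contrast was 0.96 (SE 0.29, edgeR adjusted p = 0.0975), a 1.95-fold higher fitted level in brain with an interval from 1.31-fold to 2.91-fold, and no brain library overlapped a blood library. That lack of overlap, higher in brain, was shared by 5.07% of filtered genes, and 9.04% did not overlap in either direction. The APP-PS1 contrast turned on single blood libraries. Without APP-PS1 blood replicate 1 it was 0.62 (edgeR adjusted p = 0.549). Without APP-PS1 blood replicate 3 it was 1.32 and passed the test (edgeR adjusted p = 0.0403).

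Between strains, Id2 in APP-PS1 blood against WT blood had a log2 fold change of -0.97 (SE 0.28, 95% interval -1.52 to -0.41, edgeR adjusted p = 0.186), and again the libraries did not overlap. The gap was narrow, with 2336 CPM in the highest APP-PS1 blood library and 2357 CPM in the lowest WT blood library, and 3.68% of filtered genes were lower without overlap in the same way (6.93% in either direction). The 2336 CPM belonged to the female APP-PS1 blood library, and with 1 such library no comparison among females was made. With sex as a term the difference was -0.66 (edgeR adjusted p = 0.914). Without APP-PS1 blood replicate 1 it was -0.62 (edgeR adjusted p = 0.700). Between the brains of both strains Id2 differed by -0.19 (SE 0.24, edgeR adjusted p = 0.999), with an interval from 0.629-fold to 1.22-fold. The libraries of these brains overlapped for all 9 factors, as did those of WT brain and WT blood, where 1.56% and 2.62% of filtered genes did not overlap. The 2 tissue contrasts themselves differed by 0.78 on the log2 scale (SE 0.36, edgeR adjusted p = 0.945). Averaged over strains, brain against blood was 0.57 (SE 0.18, edgeR adjusted p = 0.0773).

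Depth moved with this pattern, so Id2 was set against it. Without the 2 shallowest libraries, which also stood apart, Id2 in APP-PS1 brain against blood was 0.77 (edgeR adjusted p = 0.369) and in APP-PS1 blood against WT blood -0.65 (edgeR adjusted p = 0.583). After all libraries were thinned to 27646 counts, the contrast of APP-PS1 brain with APP-PS1 blood was 0.96 (edgeR adjusted p = 0.0556). That of APP-PS1 blood with WT blood was -0.93 (edgeR adjusted p = 0.141). Random thinning leaves the expected share of Id2 in a library unchanged, so these folds cannot tell what part depth had. APP-PS1 brain replicate 1, at 27646 counts, held 2496 CPM of Id2, the lowest of its group. WT brain replicate 3, at 51161 counts, and APP-PS1 brain replicate 3, at 56255 counts, held 3792 and 3413 CPM. The part of depth in the Id2 values was not tested. Summed markers of monocytes, macrophages and microglia, cells that can also express Id2, ranged from 58.6 to 219 CPM in WT brain, 49.1 to 208 in WT blood, 58.5 to 178 in APP-PS1 brain and 151 to 307 in APP-PS1 blood. The summed CD8 T cell markers were also low in APP-PS1 blood, at 4554 to 5742 CPM, against 6803 to 8346 in WT brain, 5551 to 7484 in WT blood and 5824 to 7235 in APP-PS1 brain. Their part in the Id2 values was not tested. Of the 9 markers of monocytes, macrophages and microglia analysed here, the defining genes Cd14, C1qa, Tmem119 and P2ry12 were at 0 in every library.

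**Figure D2:**
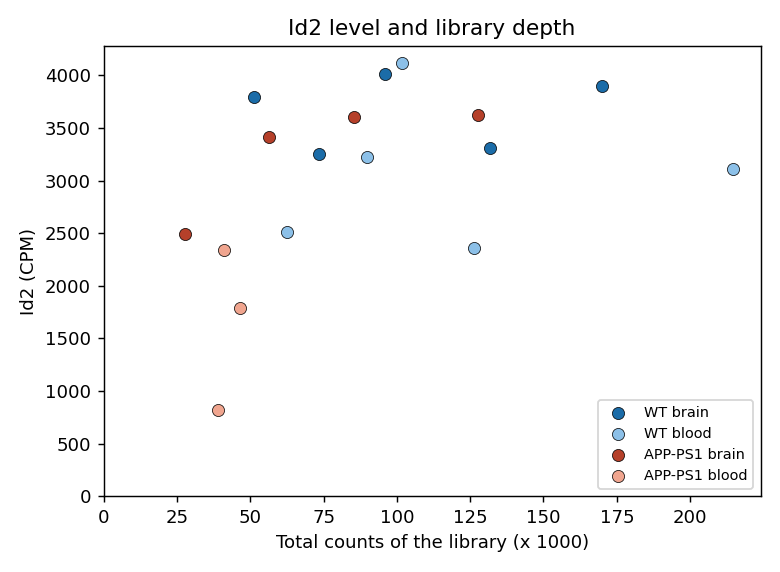
Id2 level in CPM (vertical axis, linear from 0) against the total counts of each of the 17 libraries (horizontal axis), coloured by group. The 3 APP-PS1 blood libraries lie at 39055 to 46336 counts and 819 to 2336 CPM, and APP-PS1 brain replicate 1, at 27646 counts, lies above them at 2496 CPM.

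Id3, the related inhibitor known for naive and memory precursor cells, was at the limit of detection (chromosome 4, 136143497 to 136145755, plus strand). It had 0 counts in all 5 WT brain libraries, and 0 counts in 522178 allow a level of up to 5.75 CPM. WT blood libraries held 1, 0, 6, 3 and 0 counts, APP-PS1 brain libraries 0, 2, 1 and 11, and APP-PS1 blood libraries 1, 0 and 0. The level in WT brain was at least 2.92-fold lower than in WT blood, and that in APP-PS1 brain at least 8.20-fold higher than in WT brain, both against a floor of 3 counts over WT brain. Neither passed the test (edgeR adjusted p = 0.326 and 0.778), and the libraries overlapped in both, since WT blood and APP-PS1 brain also held libraries at 0. Of the 14 counts in APP-PS1 brain, 11 came from replicate 4, its deepest and only female library. Id2 made up 98.7% to 100.0% of the summed Id2 and Id3 counts in each group, and 97.0% in the library with the lowest share.

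The T-box factors were detected at low levels with a wide spread. Eomes, which supports memory cells and their response to interleukin-15 (chromosome 9, 118478212 to 118486132, plus strand), was at 54.4, 177, 39.1, 37.9 and 261 CPM in WT brain. WT blood held 163, 277, 234, 63.9 and 118 CPM. APP-PS1 brain held 181, 58.5, 0 and 305 CPM, and APP-PS1 blood held 128, 21.6 and 122 CPM. High and low libraries occurred in every group and all groups overlapped. The mean was 171 ± 85.9 CPM (SD, n = 5) for WT blood, 136 ± 136 (SD, n = 4) for APP-PS1 brain, 114 ± 101 (SD, n = 5) for WT brain and 90.4 ± 59.7 (SD, n = 3) for APP-PS1 blood, and no neighbours in that order differed beyond their spread. The log2 fold change of brain against blood was -0.59 (SE 0.58, edgeR adjusted p = 0.886) in WT and 0.70 (SE 0.87, edgeR adjusted p = 0.855) in APP-PS1 mice. The APP-PS1 value rested on replicate 4 of brain, which held 39 of the 49 Eomes counts of its group: without that library it was -0.47.

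T-bet, encoded by Tbx21 and the main driver of effector differentiation (chromosome 11, 97098071 to 97115331, minus strand), had 1, 11, 0, 5 and 11 counts in the WT brain libraries and 13, 13, 20, 1 and 5 in those of WT blood. APP-PS1 brain had 0, 5, 6 and 8 counts and APP-PS1 blood 2, 0 and 3. All groups overlapped. Brain against blood was -0.92 (SE 0.64, edgeR adjusted p = 0.915) in WT mice and 0.76 (SE 0.97, edgeR adjusted p = 0.820) in APP-PS1 mice. The share of Tbx21 in the summed Tbx21 and Eomes counts, a ratio from which depth cancels, had intervals that overlapped between all groups. It was 29.8% (exact Clopper-Pearson 95% interval 20.8 to 40.1) in WT brain, 32.7% (25.5 to 40.6) in WT blood, 27.9% (17.7 to 40.1) in APP-PS1 brain and 31.2% (11.0 to 58.7) in APP-PS1 blood. The intervals cover counting error only, and single libraries ranged from 0.0% to 100.0%.

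Natural killer cells also carry both T-box factors. Their 8 markers summed to 41.2 to 156 CPM in WT brain, 88.5 to 490 in WT blood, 11.7 to 94.0 in APP-PS1 brain and 51.2 to 73.0 in APP-PS1 blood. The defining receptor Ncr1 was at 0 in all 17 libraries, and of the 8 markers 5 were at 0 in each brain group, 1 in WT blood and 3 in APP-PS1 blood. Klre1 held most of these counts, with 40 in WT brain, 92 in WT blood, 13 in APP-PS1 brain and 4 in APP-PS1 blood, and Tyrobp had 11 counts in WT blood and 2 in APP-PS1 brain. WT blood replicate 2 had the highest sum, 490 CPM, and also the highest Eomes level of its group, 277 CPM. The part of such cells in the Tbx21 and Eomes values was not tested.

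Zeb2, a repressor active in terminal effector cells (chromosome 2, 44983632 to 45117395, minus strand), had 0, 6, 0, 8 and 11 counts in the WT brain libraries and 4, 0, 2, 5 and 4 in those of WT blood. APP-PS1 brain had 1, 1, 2 and 2, and APP-PS1 blood 0, 0 and 4. All groups overlapped, and replicate 3 held every Zeb2 count of APP-PS1 blood. Its log2 fold change was 0.52 (SE 0.85, edgeR adjusted p = 0.999) for WT brain against blood and -0.42 (SE 1.27, edgeR adjusted p = 0.952) for APP-PS1 brain against blood. Among the 9 factors its direction was the least settled, turning in 14 of 100 refits.

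Runx3, which establishes the CD8 lineage and supports residency in tissue (chromosome 4, 135120652 to 135177990, plus strand), was at 163, 353, 176, 266 and 344 CPM in WT brain (260 ± 89.8, SD, n = 5). WT blood held 177, 158, 190, 63.9 and 236 CPM (165 ± 63.3, SD, n = 5). APP-PS1 brain held 145, 234, 178 and 94.0 CPM (163 ± 58.8, SD, n = 4), and APP-PS1 blood 128, 21.6 and 73.0 CPM (74.2 ± 53.2, SD, n = 3). The 2 highest libraries were both from WT brain and the lowest from APP-PS1 blood, and the groups overlapped in each of the 4 comparisons between groups. WT brain and APP-PS1 blood, which no comparison sets side by side, did not overlap. The share of all genes without overlap was not counted for that pair, so this is no result about Runx3. APP-PS1 blood rested on 9 counts in all.

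In both strains the fitted Runx3 level was higher in brain, without passing the test. The log2 fold change of brain against blood was 0.59 (SE 0.37, edgeR adjusted p = 0.776) in WT mice and 1.15 (SE 0.62, edgeR adjusted p = 0.518) in APP-PS1 mice. Averaged over strains it was 0.87 (SE 0.36, 95% interval 1.11-fold to 3.02-fold, edgeR adjusted p = 0.230). Against WT, Runx3 was at -0.76 in APP-PS1 brain (SE 0.42, edgeR adjusted p = 0.999) and at -1.32 in APP-PS1 blood (SE 0.59, edgeR adjusted p = 0.539). None of these 4 group contrasts turned its direction in 100 refits. Some of these refits left out a library of neither group compared, so their number does not measure how firm a direction is.

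Blimp-1 and Hobit are related zinc finger repressors that act together in resident lymphocytes. Prdm1, which encodes Blimp-1 (chromosome 10, 44437177 to 44528501, minus strand), had 2, 9, 0, 10 and 3 counts in the WT brain libraries, 3, 9, 2, 3 and 0 in those of WT blood, 0, 0, 2 and 8 in APP-PS1 brain and 2, 1 and 0 in APP-PS1 blood. Summed over a group this was 46.0 CPM (exact Poisson 95% interval 29.4 to 68.4) in WT brain, 28.6 (16.6 to 45.7) in WT blood, 33.7 (16.1 to 61.9) in APP-PS1 brain and 23.7 (4.89 to 69.3) in APP-PS1 blood. The intervals overlap throughout and cover counting error only. WT brain against blood was 0.32 on the log2 scale (SE 0.84, edgeR adjusted p = 0.999).

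Zfp683, which encodes Hobit (chromosome 4, 134053838 to 134058996, plus strand), was the sparsest, with 0, 2, 2, 3 and 0 counts in the WT brain libraries, 0, 0, 1, 0 and 0 in those of WT blood, 0, 3, 0 and 2 in APP-PS1 brain and 0, 0 and 1 in APP-PS1 blood. In WT mice it was seen in 3 of 5 brain libraries and 1 of 5 blood libraries, and its summed level was 13.4 CPM (Poisson interval 5.39 to 27.6) in brain and 1.68 CPM (0.0425 to 9.36) in blood. That comparison did not pass (edgeR adjusted p = 0.869), and a difference in Hobit was not detectable at this depth. Prdm1 made up 77.4% of the summed Prdm1 and Zfp683 counts in WT brain (Clopper-Pearson interval 58.9 to 90.4) and 94.4% in WT blood (72.7 to 99.9), from 31 and 18 counts. In APP-PS1 brain it was 66.7% (38.4 to 88.2), from 15 counts, in APP-PS1 blood 3 of 4 counts were Prdm1 (interval 19.4% to 99.4%), and single libraries ranged from 0.0% to 100.0%.

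Bhlhe40, a helix-loop-helix repressor that sustains the metabolism of resident T cells (chromosome 6, 108660629 to 108666925, plus strand), had 68.1, 35.3, 117, 68.3 and 93.9 CPM in the WT brain libraries (76.6 ± 30.8, SD, n = 5). WT blood held 126, 47.4, 66.9, 31.9 and 128 CPM (79.9 ± 44.5, SD, n = 5), and APP-PS1 brain 109, 82.0, 53.3 and 23.5 CPM (66.8 ± 36.6, SD, n = 4). In APP-PS1 blood all 10 counts lay in replicate 2, at 216 CPM, and the other 2 libraries were at 0. All groups overlapped, and the mean of APP-PS1 blood (71.9 ± 125, SD, n = 3) is that of 1 library. Brain against blood was -0.25 (SE 0.64, edgeR adjusted p = 0.978) in WT and -0.39 (SE 0.91, edgeR adjusted p = 0.931) in APP-PS1 mice. Without APP-PS1 blood replicate 2 the latter was 5.44 and rested on a group at 0, so it gives no fold.

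**Figure D3:**
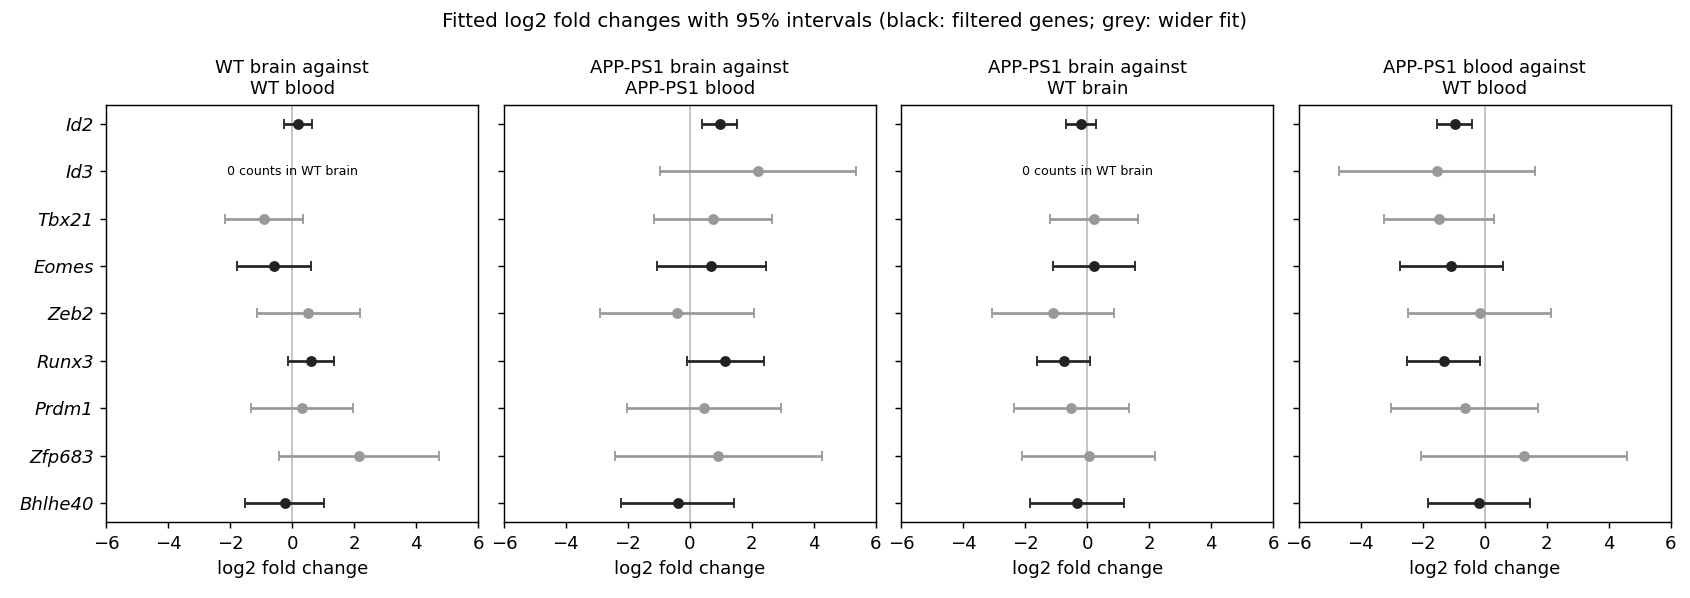
Fitted log2 fold changes (points) with 95% intervals (bars) of the 9 factors in the 4 comparisons between groups, black for the 4 factors that passed the expression filter and grey for the 5 read from the wider fit. Of the intervals drawn, only those of Id2 in both comparisons with APP-PS1 blood and of Runx3 between the blood groups leave out 0, before any adjustment. Id3 is not drawn where WT brain had 0 counts. Its fitted intervals there also leave out 0, but they rest on a group at 0 and give no fold.

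Read side by side, 8 of the 9 factors had a negative fitted log2 fold change in APP-PS1 blood against WT blood, with a median of -0.97. The median over the genes of the same fits was -0.05 in the filtered set and -0.41 in the wider set, which also holds the sparse genes. In APP-PS1 brain against APP-PS1 blood, 7 of 9 were positive with a median of 0.76, against 0.03 and 0.28 over all genes. These comparisons share the APP-PS1 blood libraries. The share of all genes with each sign was not counted, so 8 and 7 of 9 are no result about these factors. In both comparisons Zeb2, Bhlhe40 and Prdm1 turned their sign in some refits. For WT brain against blood the median of the 9 was 0.18 (5 positive), against 0.02 and 0.03 over all genes. For the brains of both strains it was -0.19 (4 positive), against -0.04 and -0.14.

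The other genes of the pathway were taken from 5 lists with 84 symbols, all of them in the file. Among 14 partners (E proteins, other Id proteins and cofactors), 2 passed the filter and 0 were called by edgeR in any comparison. At most 2.62% of the filtered genes were called in a comparison, so 0 of 2 is no result. One was Tcf3, an E protein held back by Id2, at 102 ± 38.2 CPM in WT brain and 25.7 ± 7.61 CPM in WT blood (SD, n = 5 each), a log2 fold change of 1.84 (edgeR adjusted p = 0.204). In APP-PS1 mice Tcf3 was at 146 ± 144 CPM in brain (SD, n = 4) and 112 ± 53.5 CPM in blood (SD, n = 3), a log2 fold change of 0.12 (edgeR adjusted p = 0.970). Of 16 cytokine receptor chains upstream of the factors, 8 were tested and 0 called in any comparison, which at that share of called genes is no result either. Il2rb, the chain shared by the interleukin-2 and interleukin-15 receptors, differed by 0.21 on the log2 scale in WT and by 0.70 in APP-PS1 mice (edgeR adjusted p = 0.976 and 0.769).

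Other fate factors, and genes known to be repressed or raised in resident cells, did include called genes. Markers of B cells, which also express several of the recirculation genes, moved with tissue in WT mice. Their 6 markers summed to 40.8 to 97.7 CPM in WT brain, 108 to 419 in WT blood, 53.3 to 574 in APP-PS1 brain and 146 to 302 in APP-PS1 blood, without overlap between the WT groups and with overlap between the APP-PS1 groups. Of these markers Ms4a1 was at 0 in every library, and the part of B cells in the calls below was not tested. Of 16 other fate factors tested out of 30, 1 was lower in WT brain than in WT blood and 0 higher, against 0.549% lower and 0.211% higher of all genes tested. In APP-PS1 brain against APP-PS1 blood 2 were lower and 0 higher, against 0.338% and 0.211%. Klf2, which maintains quiescence and recirculation, was lower in both (log2 fold change -2.46 and -2.88, edgeR adjusted p = 1.29e-06 and 2.04e-06), also when any 1 library was left out. Lef1, a factor of naive and memory precursor cells, fell by 2.13 on the log2 scale in APP-PS1 brain (edgeR adjusted p = 0.00969), from 520 ± 92.5 CPM in blood (SD, n = 3) to 124 ± 78.6 CPM in brain (SD, n = 4). That call ended when replicate 2 of APP-PS1 blood or replicate 4 of APP-PS1 brain was left out (edgeR adjusted p = 0.102 and 0.0713). Averaged over strains, where 1.35% of all genes tested were lower and 1.27% higher, 4 were lower, among them Satb1, a chromatin organiser, at -1.97 (edgeR adjusted p = 0.0194), and 1, Litaf, was higher (edgeR adjusted p = 0.00806). Satb1 and Litaf each passed the filter only through the tissue in which they were high. Satb1 reached at most 93.9 CPM in WT brain and 102 CPM in APP-PS1 brain, and Litaf at most 41.9 CPM in WT blood. The call of Satb1 ended without APP-PS1 blood replicate 3 or WT brain replicate 2 (edgeR adjusted p = 0.0784 and 0.0524). Litaf had 32 counts in WT brain, 13 in WT blood, 44 in APP-PS1 brain and 0 in APP-PS1 blood. Against a floor of 3 counts over APP-PS1 blood it was 6.25-fold higher in APP-PS1 brain, a fold without the counting error of brain. The median log2 fold change of this list was -0.03 in WT and 0.01 in APP-PS1 mice, close to that of all genes tested. It was also 0.01 with Litaf at this floor value.

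Of the 10 genes tied to residency, which include Klf2 and Tcf7 from the list above, 8 were tested. In WT brain 3 were lower (among them S1pr1 and Klf2, genes of recirculating cells) and 2 higher (Xcl1 and Cxcr6), where 0.549% of all genes tested were called lower and 0.211% higher. The calls of Klf2 and Xcl1 held when any 1 library was left out, while those of S1pr1 and Cxcr6 did not. Xcl1 passed the filter through brain, where it was high. It was at 352 to 622 CPM in WT brain and 0 to 156 CPM in WT blood, with a median of 83.8 CPM there. S1pr1, at 0 to 29.4 CPM in WT brain and 49.1 to 256 CPM in WT blood, passed the filter through the group in which it was high. It was no longer tested when replicate 2, 3 or 4 of WT blood was dropped, and its call ended when replicate 1 or 4 of WT brain was (edgeR adjusted p = 0.0514 and 0.0822). Cxcr6 was lost when replicate 3 of WT brain, or replicate 2 or 3 of WT blood, was dropped (edgeR adjusted p = 0.0965 at most). In APP-PS1 brain, where 0.338% of all genes tested were lower and 0.211% higher, 2 were lower (Ccr7, a lymph node homing receptor, and Klf2) and 1 higher (Cxcr6, a call that ended without APP-PS1 blood replicate 2, edgeR adjusted p = 0.0961). Averaged over strains 5 were lower and 2 higher, against 1.35% and 1.27% of all genes tested. The medians of the residency list were -1.58 and -1.52, against 0.02 and 0.03 over all genes. In APP-PS1 blood against WT blood 1 of 8 was called, against 0.0423% of all genes tested. This was Ccr7, which rose by 2.54 on the log2 scale (edgeR adjusted p = 0.0169), with 33.4 to 128 CPM in the 5 WT libraries and 432 to 640 CPM in the 3 APP-PS1 libraries. The groups did not overlap, as was so for 3.25% of filtered genes in that direction, and Ccr7 also passed the filter through the group in which it was high. The call ended with sex as a term (2.33, edgeR adjusted p = 0.539) and without any of the 3 APP-PS1 blood libraries or WT blood replicates 1, 2, 3 or 5 (adjusted p up to 0.268, edgeR). Of 16 targets of the effector factors 13 were tested: 1, the chemokine Ccl5, was lower in WT brain (0.549% of all genes tested), 0 were called in APP-PS1 brain against blood (0.549% called in either direction), and 2 were lower averaged over strains (1.35%). The second of these was Klrg1, a receptor of terminal effector cells, at -2.02 (edgeR adjusted p = 0.0314), a call that was lost without replicate 1 or 3 of APP-PS1 blood, replicate 2, 3 or 4 of APP-PS1 brain, or replicate 2 or 5 of WT brain (adjusted p up to 0.0760, edgeR). Without WT blood replicate 5 Klrg1 was no longer tested. It passed the filter only through blood, where it was high, with at most 68.1 CPM in WT brain and 72.3 CPM in APP-PS1 brain. Its mean level was 30.1 and 31.8 CPM in WT and APP-PS1 brain and 137 and 105 CPM in WT and APP-PS1 blood. The effector target list had a median of -0.45 in WT and 0.22 in APP-PS1 mice.

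**Figure D4:**
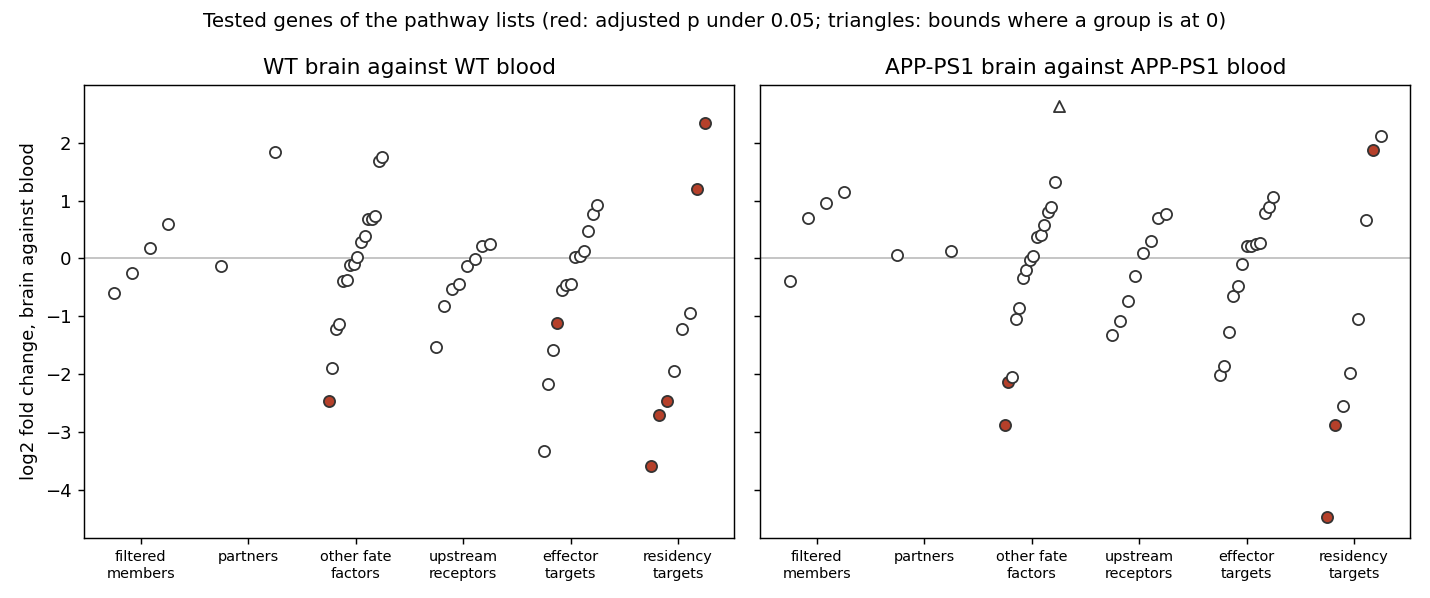
Log2 fold change of brain against blood (vertical axis) of each tested gene, by list, in WT mice (left) and APP-PS1 mice (right). Red points mark an adjusted p under 0.05, and a triangle a fold set against a floor of 3 counts where blood had 0 counts. None of the 4 filtered members is red in either strain, while the residency list holds 5 red points in WT and 3 in APP-PS1 mice.

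How the 4 filtered factors varied across the 17 libraries was described with Pearson's r of log2 CPM, over libraries that differ in depth, tissue, strain and sex. Id2 varied most like Sh3kbp1, an adaptor protein gene (r = 0.903), Sod1, encoding superoxide dismutase (0.842), and Cltc, encoding the clathrin heavy chain (0.831), out of 2298 genes compared. Runx3 was most like Dock10 (0.774), Ube3a (0.760) and Ubn2 (0.753). For Eomes the nearest genes were Cox6a1 (0.825), Spn (0.706) and Pitpnc1 (0.699), and for Bhlhe40 they were Bnip2 (0.753), Selk (0.734) and Psma2 (0.730). Among the factors themselves, r was 0.54 for Id2 with Runx3, 0.46 for Id2 with Bhlhe40, 0.24 for Eomes with Runx3, 0.11 for Runx3 with Bhlhe40, 0.06 for Id2 with Eomes and -0.21 for Eomes with Bhlhe40. At these counts, the weak values are no finding.

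All 9 genes are protein coding, and some overlap other genes. Gm33460, antisense to Eomes, had 5 counts against 233 for Eomes over all libraries. The antisense genes Zeb2os, Gm16224 at Runx3 and 0610040F04Rik at Bhlhe40 had 0. Whether the counting used strand is not stated in those sources that were used here, and without strand the reads of such a pair cannot be told apart.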

How the data were processed

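The authors deposited raw counts, whole numbers for each gene in each library. Tools listed in the submitters' processing notes, without roles, are HTSeq 0.11.2, Bowtie2 2.2.2, DESeq2 and FastQC, with the build GRCm38. Not given in the sources used here are the annotation release, any molecular identifiers and how CD8+ cells were separated. Groups came from the labels, and replicates were numbered in accession order. Same-group libraries differed beyond sampling noise (chi-square per degree of freedom 2.59 to 5.69 over 29 pairs), so each was counted once. Coordinates are from GENCODE M21.

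The test was that of edgeR 4.0.16 under R 4.3.3 (TMM, robust dispersions, quasi-likelihood F test, 1 mean per group over all 17 libraries) on genes passing filterByExpr (about 117 CPM in at least 3 libraries). Members it left out were read from the same model on genes with at least 10 counts over all libraries. SE is the absolute log2 fold change over the square root of F. CPM use total counts, and r a prior count of 2. Intervals and floors (3 counts) cover counting error only. The members, the lists and the tests were chosen with earlier results of these data known. All members were named, with up to 4 genes per list and comparison (called ones by size, otherwise by mean CPM) and the 3 genes most like each filtered member. Alternatives were RLE size factors, DESeq2 1.42.0, 2 wider filters, only the groups compared, sex as a term, thinning, leaving out each library and, added after the data were seen, leaving out the 2 libraries that stood apart, and leaving out each library for the called genes of the lists. The steps were tested on simulated data. Of the genes named by the rule or listed as markers, some are not reported here.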

Additional observations from a re-analysis of the deposited data

Results flagged for a closer look

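Dixon's test at the 95% level was applied to each factor in each group of 4 or 5 libraries with any spread, 26 groups in all, and chance alone marks about 1 in 20. It marked 1 value, Zfp683 in WT blood replicate 3, at 11.1 CPM. That level is 1 count, and the other 4 libraries of the group were at 0.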

How the results depend on the processing

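No paired analysis was possible because the labels give no replicate numbers or animals that tie libraries together. The number of factors called was 0 in each comparison under each alternative, with these exceptions, all of them Id2. For APP-PS1 brain against APP-PS1 blood, leaving out 1 library in turn gave 0 to 1 called. For brain against blood averaged over strains it gave 0 to 1 as well, with calls without APP-PS1 brain replicate 1, APP-PS1 blood replicate 3 or WT blood replicate 5 (edgeR adjusted p = 0.0383, 0.0326 and 0.0184), and DESeq2 called 1 (adjusted p = 0.0489). Over all alternatives the edgeR or DESeq2 adjusted p of averaged Id2 ranged from 0.0184 to 0.389.

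Directions turned only for values that had not passed the test, and the cause was not tested. Zeb2 in APP-PS1 blood against WT blood was 0.092 with RLE size factors, 0.061 with DESeq2, 0.47 with sex as a term, 0.53 after thinning and 0.45 without the 2 libraries that stood apart, where Bhlhe40 was 0.34. With sex as a term, Prdm1 was 0.14 in that comparison, Id2 and Zeb2 were 0.20 and 0.090 between the brains, and Zeb2 was 0.14 in APP-PS1 brain against blood. After thinning, Prdm1 and Bhlhe40 were -0.37 and 0.52 in WT brain against blood. In APP-PS1 brain against blood Tbx21, Zeb2 and Bhlhe40 were then -0.67, 0.037 and 0.75, and between the brains Tbx21, Zeb2 and Prdm1 were -1.27, 0.012 and 0.61.

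Leaving out each library in turn moved the sparse factors widely. For APP-PS1 blood against WT blood the log2 fold change ranged from -4.59 to 0.52 for Zeb2, from -6.05 to 0.39 for Bhlhe40 and from -1.32 to 2.56 for Zfp683. For APP-PS1 brain against blood it ranged from -0.98 to 5.44 for Bhlhe40, from -1.08 to 3.99 for Zeb2, from -0.79 to 1.29 for Prdm1 and from -0.47 to 1.08 for Eomes. Between the brains it ranged from -0.81 to 0.52 for Zfp683, from -0.10 to 0.71 for Tbx21 and from -0.92 to 0.74 for Eomes. For WT brain against blood it ranged from -0.017 to 0.94 for Prdm1 and from -0.16 to 1.03 for Zeb2. Extremes such as -6.05 rest on a group left with 0 counts and are no folds. Id3 and Runx3 kept their direction in each refit of the 4 group comparisons that gave a value.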
